A study of Phaseolus vulgaris with 6 samples.

Results

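The MATE (multidrug and toxic compound extrusion) efflux carriers of common bean (Phaseolus vulgaris) were examined in developing pods of Albion and Voyager, a pair of navy bean genotypes. The members were the genes whose homology annotation in the deposited expression table contains the words MATE efflux, and 34 of the 19598 listed genes met this rule. All 34 carry the same annotation, MATE efflux family protein, which was assigned by homology to Arabidopsis thaliana, and 4 of them also carry a gene symbol (FRD3, TT12 and, for a pair of genes, ALF5). The rule uses the annotation and no expression value.

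The study compared the genotypes because Voyager accumulates more zinc in its seed than Albion. The labels give 6 samples of whole developing pods, 3 of each genotype, all at 20 days after anthesis, whereas the study's methods state an earlier age for the pods that were sequenced. All plants were fertilized alike in a greenhouse and described as grown at sufficient zinc, and the zinc field of the labels, which reads low for Albion and normal for Voyager, was therefore read as a property of the genotypes. Each replicate was 1 pot, from which a pair of pods was ground together, so that pod wall and developing seed were measured as one tissue. Fewer cells of a type and less RNA per cell cannot be told apart in such a sample. The table holds 1 pooled value per gene and genotype in FPKM (a count of sequenced fragments per gene that is corrected for exon length and sequencing depth). It gives no spread between pots and no read counts, so how many fragments lie behind a value is not stated. It also holds the authors' test results for each gene, which were not used here. No difference below was therefore checked against replicates, and none was tested here. FPKM is scaled to exon length, and levels of different genes may therefore be set side by side.

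MATE proteins are membrane carriers that move organic compounds out of the cytosol, across the plasma membrane or into the vacuole, in exchange for protons or sodium ions. In Arabidopsis, FRD3 releases citrate into the xylem, where citrate keeps iron soluble, and loss of FRD3 also disturbs zinc and manganese. TT12 of Arabidopsis is a vacuolar carrier of flavonoids in the seed coat, and ALF5 of Arabidopsis protects roots against toxic compounds. For the 30 members without a symbol the substrate is not annotated.

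None of the 34 listed carriers was at 0 in a genotype. Every gene of the table had at least 0.73 FPKM in its higher genotype, so MATE genes below that in both would not be among the members, and 3 members (Phvul.005G115000, Phvul.004G175400 and Phvul.005G021900) reached this value in Voyager only. The levels of the members ran from 0.15 to 182 FPKM in Albion, with a median of 7.19 FPKM, and from 0.79 to 120 FPKM in Voyager, with a median of 7.51 FPKM. Over all listed genes the median levels of Albion and Voyager were 11.1 and 11.7 FPKM, and 12 of the 34 carriers had a mean level above the median of all genes. A mean under 1 FPKM was found for 5 of the 34 (14.7%), compared with 5.54% of all listed genes. The family as a whole summed to 498 FPKM in Albion and 458 FPKM in Voyager, or 0.0600% and 0.0482% of the FPKM of all genes.

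A single gene made up much of the family sum. Phvul.008G031700 (chromosome 8, 2627826 to 2629999, positions in the v1.0 genome as deposited) reached 182 FPKM in Albion and 120 FPKM in Voyager, or 36.5% and 26.1% of the family total. It was the only member with a mean of at least 100 FPKM and lay at the 95.2 percentile of all listed genes. Its Voyager level was lower by 62.3 FPKM, a difference of -0.60 in log2(FPKM + 1), Voyager minus Albion, which is the scale of every difference below. The remaining 33 carriers summed to 316 FPKM in Albion and 338 FPKM in Voyager. The lower family sum of Voyager therefore rested on this gene.

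The carrier next in level, Phvul.004G110000 on chromosome 4 (36310908 to 36313382), leaned the other way, with 54.5 FPKM in Albion and 70.4 FPKM in Voyager (difference 0.36). Together these genes held 47.4% of the family level in Albion and 41.5% in Voyager. Both have short gene models, spanning 2.17 and 2.47 kb. A span under 3 kb is found in 7 members, and the other 5 had means of only 0.69 to 7.69 FPKM. The remaining 26 members with a span of their own were all at 24.6 FPKM or less.

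Below this pair came a group of carriers at similar levels. Phvul.007G034900 had 23.4 FPKM in Albion and 25.8 FPKM in Voyager. Phvul.005G147400 (20.3 and 18.9 FPKM in Albion and Voyager), Phvul.011G060000 (18.5 and 20.5 FPKM) and Phvul.008G291400 (17.6 and 18.2 FPKM) followed. Phvul.011G040200 (17.9 and 15.8 FPKM), Phvul.001G103300 (16.5 and 14.6 FPKM) and Phvul.001G017400 (16.0 and 15.0 FPKM) were slightly higher in Albion. These 7 genes differed between genotypes by 0.17 or less on the log2 scale. The eighth gene at these levels, Phvul.004G152100, differed more, with 20.9 FPKM in Albion and 16.0 FPKM in Voyager (difference -0.36). Phvul.008G291400 is listed at the same position as 2 other genes, annotated as isocitrate dehydrogenase 1 and a phosphoglycerate mutase family protein, and reads could be split between them. The 10 genes of highest mean held 77.8% of the family level in Albion and 73.1% in Voyager, and 9 genes were shared by the first 10 of each genotype.

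**Figure D1:**
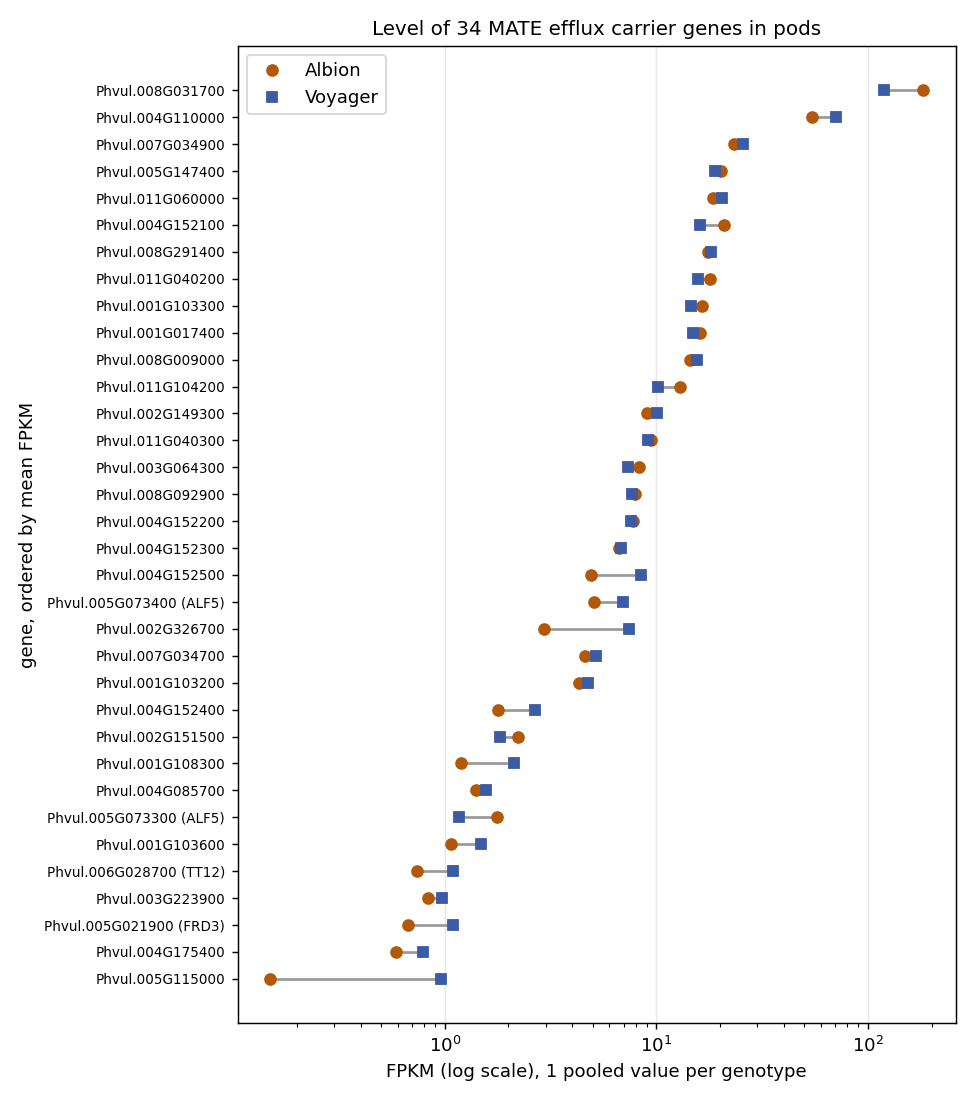
FPKM (log axis) of the 34 MATE efflux carrier genes, ordered by mean, with 1 pooled value for Albion (circle) and 1 for Voyager (square) and a line joining them. Phvul.008G031700, at 182 and 120 FPKM, stands above all others, and the longest lines on this axis belong to Phvul.005G115000 (0.15 and 0.96 FPKM) and Phvul.002G326700 (2.95 and 7.39 FPKM).

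Of the carriers with a gene symbol, 3 had means of 1.47 FPKM or less, and an ALF5 gene had 6.02 FPKM, against a family median of 7.21 FPKM. The FRD3 gene Phvul.005G021900 (chromosome 5, 1934195 to 1942723) had 0.67 FPKM in Albion and 1.10 FPKM in Voyager, and the TT12 gene Phvul.006G028700 (chromosome 6, 12247773 to 12251215) had 0.74 and 1.09 FPKM. By mean level they lay at the 4.16 and 4.57 percentiles of the table. Their differences of 0.33 and 0.26 correspond to 0.43 and 0.35 FPKM. Of the ALF5 pair, Phvul.005G073400 had 5.06 FPKM in Albion and 6.98 FPKM in Voyager (difference 0.40). The other, Phvul.005G073300, had 1.77 and 1.17 FPKM (difference -0.35), so the ALF5 genes differed in opposite directions.

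On the log2(FPKM + 1) scale only 1 carrier differed 2-fold or more between the genotypes, the size taken here as a marked difference. Margins in the counts below are on this scale unless stated otherwise. In Phvul.002G326700 (chromosome 2, 48502923 to 48505936) the level was 2.95 FPKM for Albion and 7.39 FPKM for Voyager (difference 1.09). That is 1 of 34 members (2.94%), and 2.55% of all listed genes were higher in Voyager by this margin. No member was higher in Albion by 2-fold, compared with 1.76% of all genes. The share of carriers past this margin was thus close to that of the table as a whole. By FPKM alone Phvul.005G115000, treated below, would pass it too, with a Voyager level 6.40 times that of Albion.

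With a margin of 1.5-fold, 3 carriers were higher in Voyager (8.82%, against 6.94% of all genes) and 1 was higher in Albion (2.94%, against 4.24%). The 2 carriers added on the Voyager side were Phvul.005G115000, the member of lowest mean, with 0.15 FPKM in Albion and 0.96 FPKM in Voyager (difference 0.77), and Phvul.004G152500, with 4.91 and 8.48 FPKM (difference 0.68). The carrier on the Albion side was Phvul.008G031700. On the log2(FPKM + 1) scale no member reached 3-fold in either direction, a margin passed by 0.949% of all genes towards Voyager and by 0.658% towards Albion.

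The value of Phvul.005G115000 depends on how low levels are treated. Its Voyager level was 6.40 times its Albion level, and with 0.1 in place of 1 added to each FPKM its difference became 2.08. It then passed both 2-fold and 3-fold, so that 2 of 34 members were higher in Voyager by 2-fold (5.88%, against 4.5% of all genes), while the number higher in Albion stayed at 0 (against 2.92%). The Albion value, 0.15 FPKM, is the lowest of any carrier in either genotype. Only the Voyager value of this gene reached 0.73 FPKM, the least that any listed gene has in its higher genotype. Its direction is therefore not free of how genes came to be listed, and every count above that includes it shares this limit.

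Next in size towards Voyager were Phvul.001G108300 on chromosome 1, with 1.20 FPKM in Albion and 2.12 FPKM in Voyager (difference 0.50), and Phvul.004G152400, with 1.78 and 2.67 FPKM (difference 0.40). Towards Albion, after Phvul.004G152100, Phvul.011G104200 had 13.0 FPKM in Albion and 10.2 FPKM in Voyager (difference -0.32). Phvul.002G151500, with 2.22 and 1.83 FPKM, differed by -0.19. At the bottom of the range, Phvul.004G175400 had 0.59 FPKM in Albion and 0.79 FPKM in Voyager. The 8 members not named here had means from 0.90 to 15.0 FPKM and differences from -0.15 to 0.27.

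Most carriers were at nearly the same level in both genotypes. A difference of 0.2 or less in size was found for 20 of the 34 (58.8%) and for 55.9% of all listed genes. The median difference was 0.11 over the carriers and 0.07 over all genes, and the median size of the difference, regardless of direction, was 0.17 in both. Voyager had the higher value for 21 carriers and Albion for 13, and 61.8% of carriers and 61.9% of all genes were higher in Voyager. After the median of all genes was set to 0, 19 of the 34 carriers were higher in Voyager, against 50% of all genes.

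The direction was unevenly spread over the range of levels. Of the 11 carriers with a mean under 2.5 FPKM, 9 were higher in Voyager (81.8%), compared with 58.6% of all genes at these levels. Of the 12 carriers with a mean of 10 FPKM or more, 5 were higher in Voyager (41.7%), compared with 63.4% of all genes at these levels. In the class between, 7 of 11 were higher in Voyager. The class limits were chosen after the values were seen, the classes are small, the lowest includes the 3 genes that reached 0.73 FPKM in Voyager only, and the pattern was not tested.

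**Figure D2:**
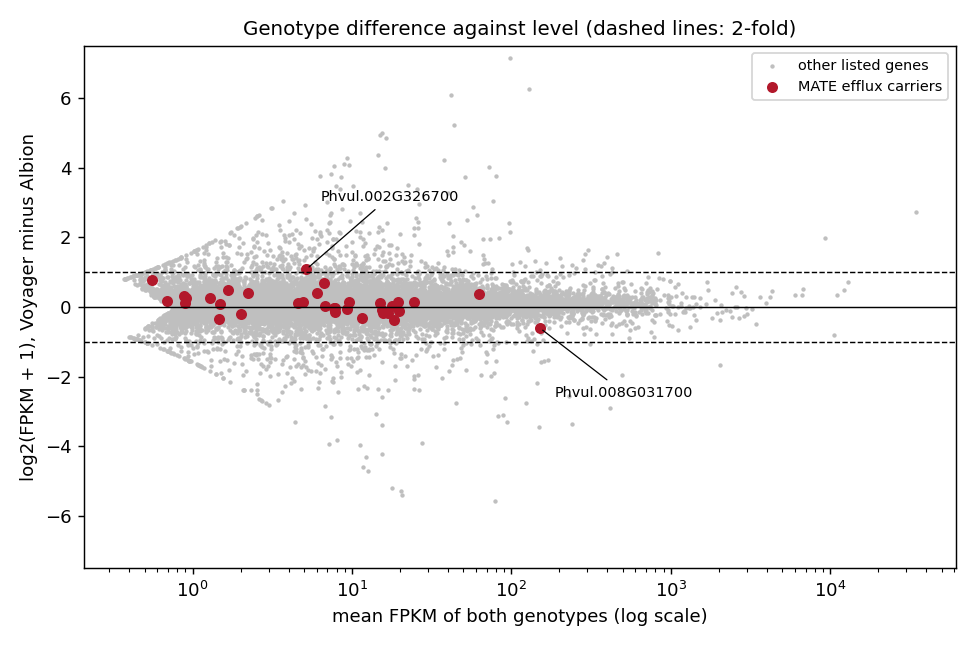
Difference in log2(FPKM + 1), Voyager minus Albion, against mean FPKM (log axis), for the 34 carriers (red) and the other listed genes (grey), with dashed lines at 2-fold. Phvul.002G326700, at 1.09, is the only red point outside the dashed lines, and Phvul.008G031700, at -0.60, is the lowest red point.

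The 34 carriers lie on 9 of the 11 chromosomes. Chromosome 4 holds 8 members, chromosomes 1 and 5 hold 5 each, chromosomes 8 and 11 hold 4 each, chromosome 2 holds 3, chromosomes 3 and 7 hold 2 each and chromosome 6 holds 1. Chromosomes 9 and 10 hold none of those listed. Within 100 kb of another member lie 11 carriers, in 4 groups. MATE genes close together are often copies of one another, and where copies are nearly identical the authors' counting may have split their reads, so the values of single genes in these groups are less certain.

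The largest group is a run of 5 consecutive listed genes on chromosome 4, from 43356492 to 43397633, with gaps of 2.34 to 7.84 kb. In Albion their levels, in order along the chromosome, were 20.9 FPKM for Phvul.004G152100, 7.75 for Phvul.004G152200, 6.63 for Phvul.004G152300, 1.78 for Phvul.004G152400 and 4.91 for Phvul.004G152500. In Voyager the same genes had 16.0, 7.62, 6.82, 2.67 and 8.48 FPKM. The first gene was the highest and the fourth the lowest in both genotypes, an 11.7-fold range in Albion and one of 6-fold in Voyager. The differences along the run were -0.36, -0.02, 0.04, 0.40 and 0.68, so that each gene leaned further towards Voyager than the one before it. The sum over the run was nearly equal, with 41.9 FPKM in Albion and 41.6 FPKM in Voyager.

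The other groups are pairs. The ALF5 genes lie 10.7 kb apart on chromosome 5 (12748176 to 12769193), and Phvul.005G073400 was 2.86 times the level of its neighbour in Albion and 5.97 times in Voyager. On chromosome 7 (2782866 to 2815116), Phvul.007G034700 had 4.60 FPKM in Albion and 5.19 FPKM in Voyager, and its neighbour Phvul.007G034900 was at 5.09 and 4.96 times these levels. An ATP synthase alpha/beta family gene, Phvul.007G034800, is listed between them. On chromosome 11 (3470929 to 3487600), Phvul.011G040200 was 1.90 times the level of Phvul.011G040300 in Albion and 1.73 times in Voyager, with 9.43 and 9.12 FPKM for the latter. In the chromosome 7 and 11 pairs both genes leaned the same way, towards Voyager on chromosome 7 and towards Albion on chromosome 11.

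**Figure D3:**
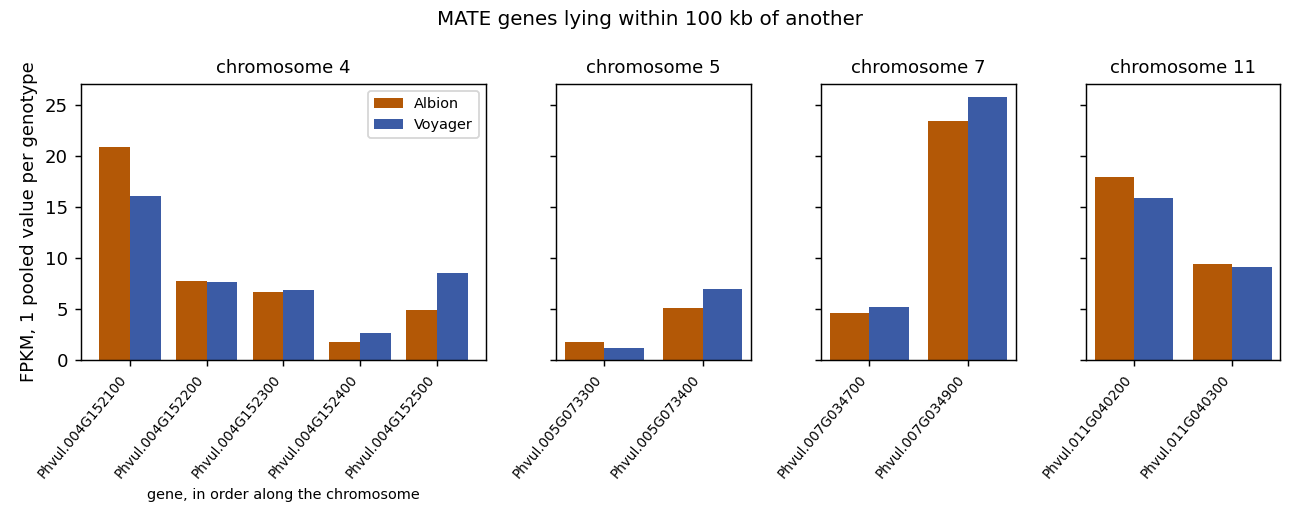
FPKM (linear axis from 0, 1 pooled value per genotype as a bar) of the 11 carriers that lie within 100 kb of another, in order along each chromosome. On chromosome 4 Albion is higher for the first gene (20.9 against 16.0 FPKM) and Voyager for the last (8.48 against 4.91 FPKM).

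Other transporter families were set beside the carriers, using lists made from words of the annotation. ABCC transporters, which carry conjugated compounds into the vacuole, had a median difference of 0.15 over 21 genes, with 0 genes higher in Voyager by 2-fold and 1 higher in Albion. On the log2(FPKM + 1) scale no gene was past 2-fold among the ABCG pleiotropic drug resistance transporters (11 genes, median 0.07). None was among the ABCB transporters (7 genes, 0.04) or the aluminum-activated malate transporters (10 genes, 0.02). By FPKM alone further genes of these lists passed it, in both directions. Towards Voyager, the ABCG gene Phvul.005G173700 had 6.50 FPKM in Albion and 13.5 FPKM in Voyager. The malate transporter Phvul.001G150200 had 0.14 and 1.09 FPKM. Towards Albion, the ABCG gene Phvul.001G187800 had 1.24 and 0.32 FPKM. Among lists annotated as metal transporters the ZIP list had 1 of 13 genes past 2-fold towards Voyager (median 0.15). The zinc induced facilitators had 1 of 5 in each direction (median 0.19), and the NRAMP list had 1 of 7 towards Albion (median 0.02). The NRAMP list follows the annotation and includes Phvul.001G177500 and Phvul.007G150600, which carry the symbol EIN2. Their means of 28.5 and 32.1 FPKM raise the median level of that list. The medians of all these lists lay between 0.02 and 0.19, and that of the MATE carriers, 0.11, was within this range. By level, the median of the MATE carriers (7.21 FPKM as the mean of both genotypes) was above that of the ABCC (3.59 FPKM) and malate transporter (3.23 FPKM) lists and below that of the NRAMP list (21.1 FPKM).

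**Figure D4:**
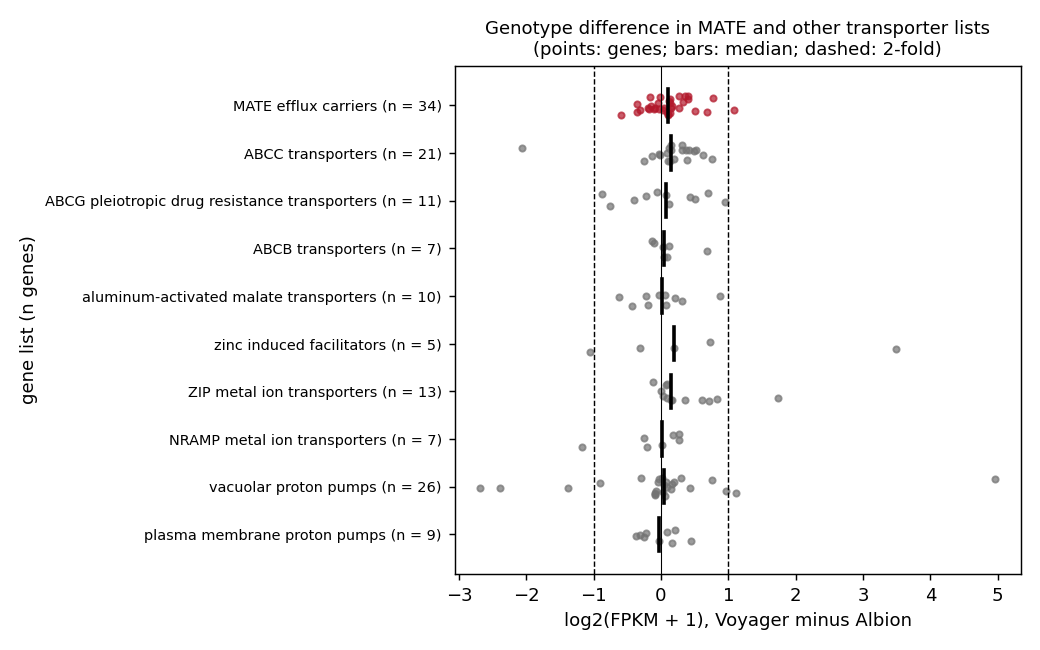
Difference in log2(FPKM + 1), Voyager minus Albion, for each gene (point) of the MATE carriers (red) and of 9 other transporter and proton pump lists (grey), with the list's median as a bar and dashed lines at 2-fold. The MATE points run from -0.60 to 1.09, and the far points belong to other lists.

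Lists named for tissues were set beside the carriers as a rough view of the makeup of the pods. The seed list (75 genes annotated as oleosin, late embryogenesis or RmlC-like cupin) summed to 4919 FPKM in Albion and 4839 FPKM in Voyager. It includes genes with the symbols NHL10, NDR1, ARD4 and ATARD2. It holds no PAP85 cupin gene, which the study names among the most highly expressed in the pods. Its sums are therefore no measure of seed content. In this list 48 of 75 genes were higher in Voyager, and the median difference was 0.13. Past 2-fold were 2 genes towards Voyager and 0 towards Albion. Its 4 oleosin genes taken alone summed to 861 FPKM in Albion and 695 FPKM in Voyager (median difference -0.25). Of these oleosin genes, 3 were higher in Albion and 1 in Voyager. The photosynthesis list (84 genes) was chosen for green pod wall, but whether seed also expresses these genes was not checked. It summed to 21168 FPKM in Albion and 19176 FPKM in Voyager, with a median difference of -0.055. In it 38 genes were higher in Voyager, 2 genes were past 2-fold towards Voyager and 6 towards Albion. The lignified wall list (49 genes annotated as laccase, fasciclin-like or cellulose synthase A4 or A9) summed to 2166 FPKM in Albion and 2274 FPKM in Voyager. Its median difference was 0.19, with 31 genes higher in Voyager, 5 genes past 2-fold towards Voyager and 3 towards Albion. These lists follow words of the annotation, and their members were not checked for expression in the tissue named. By the study's description, seed formed a larger part of the pod in Albion and pod wall a larger part in Voyager. The photosynthesis sum, in contrast, was lower in Voyager. The part of tissue makeup in the differences of the carriers was not tested.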

How the data were processed

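Pod RNA of 3 Albion and 3 Voyager pots was sequenced by the authors on an Illumina Genome Analyzer II as paired-end reads. The authors cleaned the reads with FASTX-Toolkit scripts, built the genome index with Bowtie 0.12.7, aligned to the v1.0 genome and its gene models with TopHat 1.4.1, and estimated abundance with Cufflinks 1.3.0 and Cuffdiff. The deposited FPKM values are those of Cuffdiff, with the replicates of a genotype pooled by the authors and rounded to 2 decimals. The table also holds the authors' fold changes, test statistics, p-values and q-values, which were not used.

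The difference of a gene was log2(FPKM + 1) in Voyager minus that in Albion. This scale understates the change of low genes. A difference of at least 1 in size (2-fold) was counted, for the members and for all 19598 listed genes. No filter on low values was applied. The counting code was run on simulated data without noise, with changes well past 2-fold in genes that were not low. That checks the code alone and not the counts at low levels. Python 3.11, numpy 2.4.6, pandas 2.3.3 and matplotlib 3.10.9 were used.

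Alternatives were a pseudocount of 0.1, a mean of at least 1 FPKM, centring on the median of all genes, scaling to the 75th percentile, and margins of 1.5-fold and 3-fold. Named genes were the 10 of highest mean, the 6 of largest difference per direction, the 3 of lowest mean, those past 2-fold, with a symbol, listed at 0, or within 100 kb of another member. One gene matched by both proton pump lists was kept in the vacuolar one. The members and lists were chosen with earlier results of these data known. No sequences were used here, and variants and read alignments were not analysed here.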

Additional observations from a re-analysis of the deposited data

How the results depend on the processing

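The number of carriers higher in Voyager by 2-fold was 1 with a mean of at least 1 FPKM (29 members left), with centring on the median of all genes and with scaling to the 75th percentile. It became 2 with a pseudocount of 0.1, 3 with a margin of 1.5-fold and 0 with 3-fold. The number higher in Albion was 0 in all of these except the margin of 1.5-fold, which gave 1. The median difference of the carriers was 0.14 with a pseudocount of 0.1, 0.046 with a mean of at least 1 FPKM (0.065 over all genes), 0.041 with centring and 0.044 with scaling to the 75th percentile (-0.0070 over all genes). Centring and scaling each changed the direction of 2 carriers, Phvul.004G152300 and Phvul.008G291400, whose differences were 0.05 or less in size, and the pseudocount changed the direction of none. Ordered within Albion alone, the 10 carriers of highest mean were the first 10, and within Voyager alone 9 of them were. No replicate could be left out, and no paired analysis was possible because the table pools the replicates of each genotype. The study reports an average number of mapped reads per sample. How many fragments lie behind single values, above all those under 1 FPKM, is not stated.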

Other observations

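One further carrier of the same kind lies outside the annotation rule. Phvul.007G073400, annotated as detoxifying efflux carrier 35 (FFT, a flavonoid carrier of flowers in Arabidopsis), had 8.46 FPKM in Albion and 6.92 FPKM in Voyager, a difference of -0.26. It was chosen after its values were seen.

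Proton pumps supply the gradient that many MATE carriers use. The vacuolar list had 26 genes with a median difference of 0.04, and the plasma membrane list had 9 genes with a median of -0.03 and none past 2-fold in either direction. AHA10 (Phvul.009G260800), counted in the plasma membrane list by its annotation, had 2.72 FPKM in Albion and 1.87 FPKM in Voyager (difference -0.37). In Arabidopsis, AHA10 energizes the vacuole of seed coat cells, where TT12 is a carrier.

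In the vacuolar list 2 genes were past 2-fold towards Voyager and 3 towards Albion, and all 5 carry the annotation of vacuolar ATP synthase catalytic subunit-related proteins. This annotation is shared by 8 genes, of which 6 were listed at 0 in a genotype, 2 in Albion and 4 in Voyager, whereas 0.811% of all genes were at 0 in a genotype. The most abundant of them, Phvul.007G073700, was listed at 0 in Albion and had 30.0 FPKM in Voyager, and Phvul.011G190900 had 5.42 FPKM in Albion and was listed at 0 in Voyager. Some of the gene models are short, such as that of Phvul.011G190900, from 46767571 to 46767709 on chromosome 11. The other 18 genes of the vacuolar list differed by -0.30 to 0.43. The cause of these values was not tested.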
